A study of Mus musculus with 3 samples.

Results

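Receptors for the growth factors and cytokines of myeloid cells were described in MigA9 cells that had been given DB818. The group comprised 10 genes: Kit, Flt3, Csf1r, Csf2ra, Il3ra, Csf2rb, Csf2rb2, Csf3r, Il6ra and Ifngr1. They were taken by the gene name that the array gives each probe, with the older name Csf2rb1 read as Csf2rb, and they made up 10 of 27393 genes and 15 of 41174 probes. MigA9 is a mouse hematopoietic line transformed by Hoxa9 and grown in medium conditioned with GM-CSF, which the untreated and the treated cells shared. The treated cells received 2.5 µM DB818, a compound that binds in the minor groove and was made to keep HOXA9 off its sites in DNA, for 6, 12 or 24 h. RNA of treated cells (Cy5) was hybridised with RNA of unexposed cells (Cy3) on 1 two-colour Agilent array for each time, without a dye swap. The cells are of 1 line, and whether the untreated RNA was prepared separately for each time is not stated in the sources used here. Dye and treatment therefore cannot be told apart, and the 3 times stood in for replicates in the test of the mean ratio.

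Kit and Flt3 are receptor tyrosine kinases for stem cell factor and FLT3 ligand, and Csf1r is their relative that binds CSF-1. The receptors for GM-CSF, IL-3 and IL-5 each pair a chain that binds the ligand with a shared beta chain, which carries the signal through JAK2 and STAT5, and mice have a second beta chain, Csf2rb2, that serves IL-3. Csf3r binds G-CSF, Il6ra binds IL-6 and signals through gp130, and Ifngr1 is the ligand-binding chain of the interferon-gamma receptor. Kit marks early hematopoietic progenitors and mast cells, while Csf1r and Csf3r mark monocytic and granulocytic cells.

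Unless a fold or a signal is named, each value is a log2 ratio, treated over untreated. A gene's ratio was averaged over its usable probes, those unsaturated and well above the background of both channels. On the 6, 12 and 24 h arrays 11448, 11477 and 11567 genes were measured in this way, with medians of 0.03, 0.02 and 0.03. The central 95% of genes ran from -0.21 to 0.29 at 6 h, from -0.21 to 0.27 at 12 h and from -0.26 to 0.33 at 24 h. Repeated spots of 1 probe scattered by 0.043, 0.034 and 0.051 (SD, 22 probes), which covers spotting and scanning only, and precision is limited by the 3 arrays. The mean over the 3 times was tested in limma on 10957 genes with Benjamini-Hochberg adjustment at 0.05. Of these genes 20.0% were called higher and 7.84% lower. Higher genes were 71.8% of the calls, but 48.0% with Agilent's processed signals and 48.2% with median centring of each array in place of loess.

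Kit, Il3ra and Csf2ra rose over the 3 times, by means of 0.32, 0.18 and 0.17. Csf1r fell by 0.13, and Ifngr1 fell by 0.25 but stood 0.28 higher with median centring in place of loess. Csf3r, Csf2rb, Csf2rb2 and Il6ra were measured and did not pass the test, and Flt3 was not well above background in either channel on any array. In all, 3 of the 9 measured receptors were higher and 2 were lower, against 20.0% and 7.84% of all genes tested. The median of the receptors was -0.01 against 0.03 over all genes tested. Without the 12 h array only Kit passed the test, with adjusted p = 0.027 in limma.

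**Figure D1:**
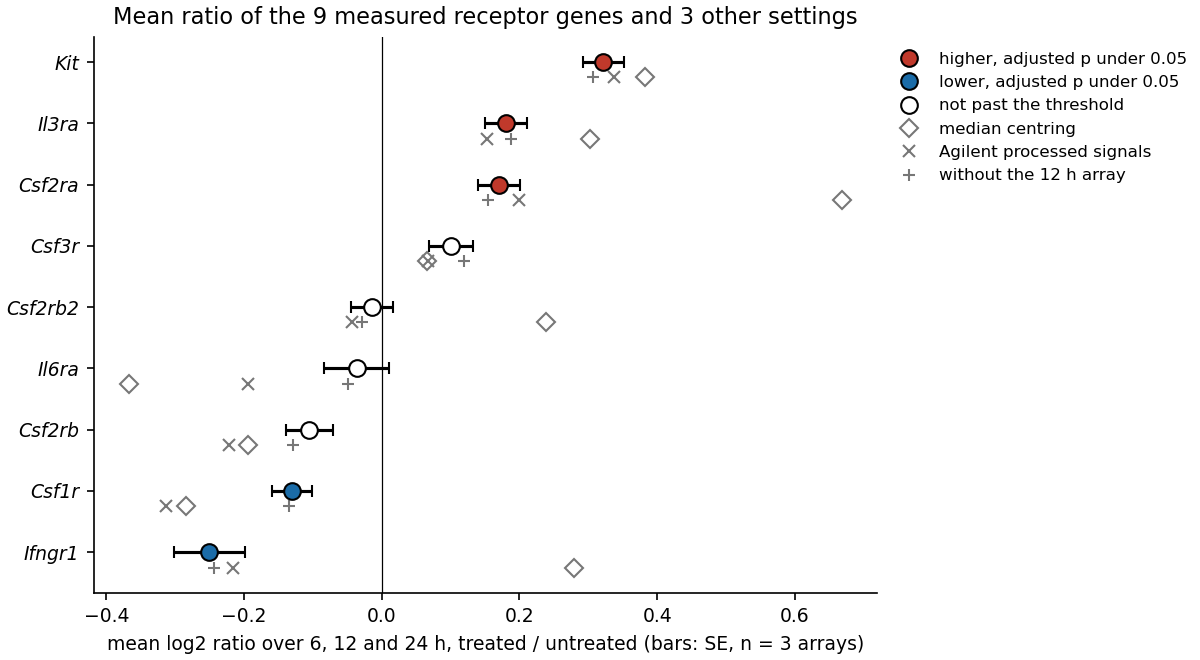
Mean log2 ratio (treated over untreated, horizontal axis) of the 9 measured receptor genes over the 6, 12 and 24 h arrays, with standard errors (n = 3 arrays), filled where limma's adjusted p was under 0.05. Grey marks give the mean with median centring, with Agilent's processed signals and without the 12 h array. Kit (0.32) lies above 0 under all of them, whereas Ifngr1 (-0.25) and Csf2rb2 (-0.01) lie above 0 with median centring, at 0.28 and 0.24.

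The bases before the transcription start of Kit, the highest mean among the receptors, and of Ifngr1, the lowest, are printed because DB818 is a DNA ligand. They are the 250 bases upstream of the start in RefSeq (GRCm38.p6), 5′ to 3′ on the strand of the gene. Kit lies at chr5:75574987-75656722 and its window at chr5:75574737-75574986, and Ifngr1 lies at chr10:19591949-19610229 and its window at chr10:19591699-19591948, both on the plus strand.
Kit: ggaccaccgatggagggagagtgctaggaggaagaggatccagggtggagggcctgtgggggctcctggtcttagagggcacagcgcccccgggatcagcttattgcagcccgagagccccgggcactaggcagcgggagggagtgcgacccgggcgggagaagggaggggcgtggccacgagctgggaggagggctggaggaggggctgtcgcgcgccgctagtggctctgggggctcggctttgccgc
Ifngr1: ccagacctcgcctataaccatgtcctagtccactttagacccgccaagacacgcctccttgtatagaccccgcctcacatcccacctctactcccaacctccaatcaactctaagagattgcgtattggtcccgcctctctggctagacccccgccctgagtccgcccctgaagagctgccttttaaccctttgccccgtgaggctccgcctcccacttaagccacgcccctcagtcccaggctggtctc
These windows held none of the motifs searched, so no base is in capitals.

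All 8 receptor windows that were found held fewer A and T than the median window, with shares of 27.6 to 43.6%. The A+T share was 27.6% in Il3ra, 29.2% in Kit, 35.2% in Csf2ra and 40.8% in Ifngr1, against a median of 47.6% over 32851 windows of that length. Each window ends at the transcript start that the table uses. For Il3ra (chr14:14345912-14355493) and Csf3r (chr4:126023441-126044975) the whole window lies inside the outer limits of the gene. For Csf2ra (chr19:61217191-61228461) a part of the window does. Windows on chromosome 18, where Csf1r lies, were left out of the search and of the shares and median over all windows. Of the 10 receptors, 8 had a window among those kept, and all 8 were searched on both strands for 4 motifs. TTTAT, a core of the sites of posterior HOX factors, was in 37.3% of all windows, GGAAGT, bound by ETS factors, in 19.7%, TTGCNNAA, a C/EBP type of motif, in 9.56% and AGATAA, which GATA factors bind, in 9.99%. Il3ra held GGAAGT at 139 to 134 bases before that start and TTGCNNAA at 134 to 127, which share 1 base. Flt3 held 1 TTTAT and 1 GGAAGT, and Il6ra held 2 GGAAGT and 1 AGATAA. Kit, Csf2ra, Csf2rb2, Csf3r and Ifngr1 held none of these letters in the window. A match describes the letters and is not a site of binding.

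Kit, the receptor for stem cell factor, had 1 probe, and its signals in the untreated channel were 209.8, 202 and 194 at 6, 12 and 24 h over backgrounds of 41, 42 and 42. In the treated channel they were 493, 471 and 452 over backgrounds of 54, 53 and 54. Raw signals of the dyes are not on a common scale. After normalisation the ratios stood at 0.31, 0.35 and 0.31, all 3 above 0 and within 0.05 of each other. The mean was 0.32 ± 0.03 (SE, n = 3 arrays), with adjusted p = 0.0034 in limma and a 95% interval of 0.25 to 0.39. Only 140 of the 10957 genes (1.28%) had a higher mean. Kit passed the test in each of the 10 other settings tried, with means of 0.31 to 0.38 and adjusted p between 9.9e-05 and 0.028. Its 1 probe was usable on every array. The mean therefore could not change without the filter, with the brightest probe, with each probe fitted alone or with the variance trend. The scanner's own ratio was 0.33, 0.38 and 0.30, with errors of 0.21 at each time. From the 6 to the 24 h array the Kit signal differed by -0.16 in both channels on the normalised log2 scale, and the ratio itself by 0.0008.

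Single times were described by size, without a test, at a log2 ratio of 0.32 or beyond -0.32. At 12 h Kit was the 1 receptor that far above 0 (1.28-fold) and 0 receptors were that far below, against 1.39% and 0.723% of all genes. At 6 h 0 receptors passed this size in either direction, where 1.80% of genes stood above it and 0.725% below. At 24 h 0 receptors stood above and 1 below, Ifngr1, against 2.71% and 1.46% of all genes.

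**Figure D2:**
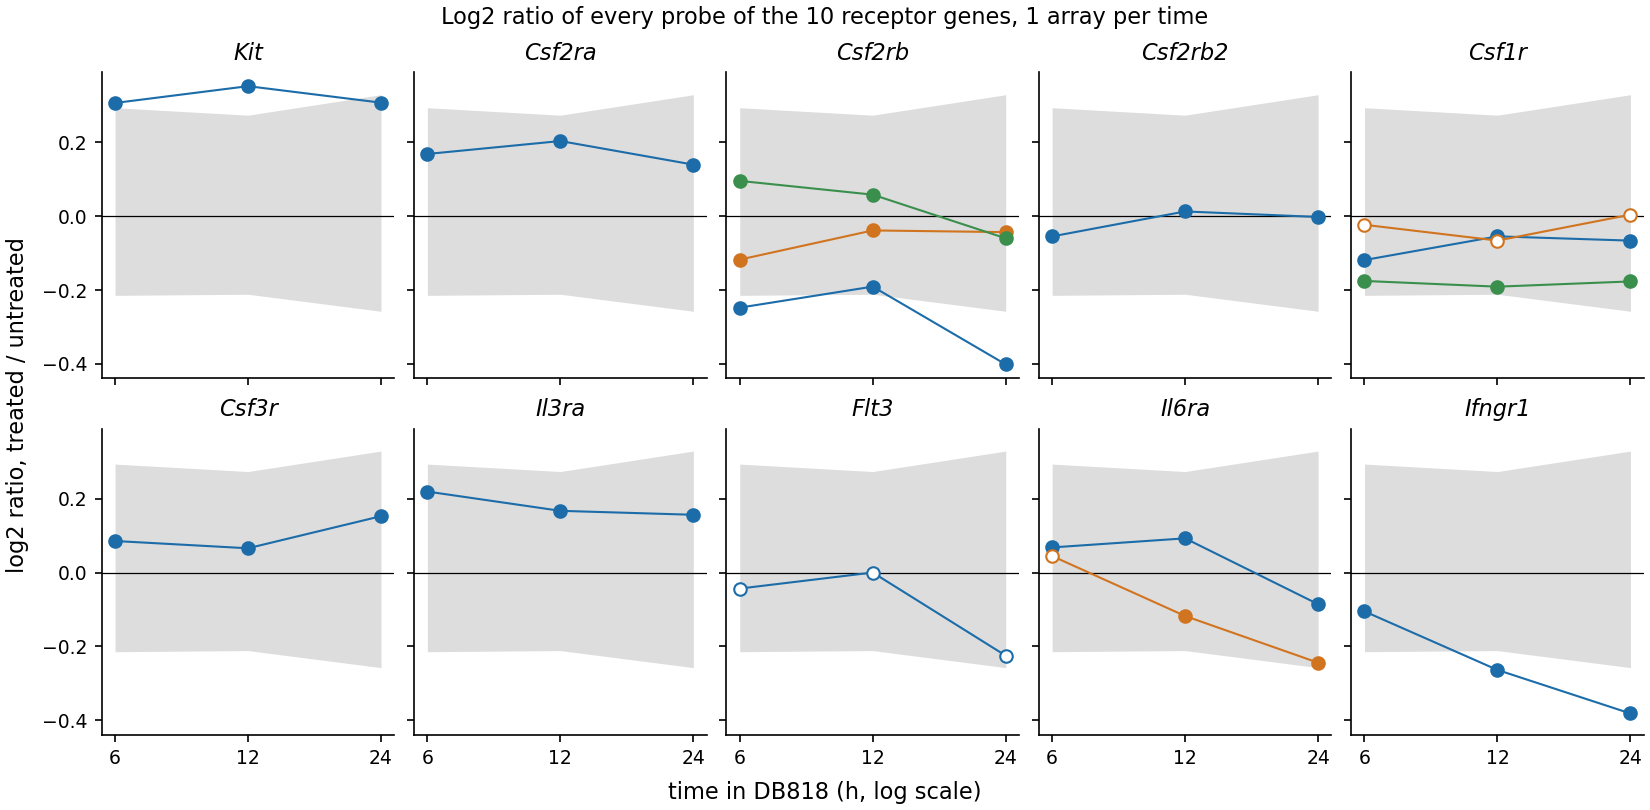
Log2 ratio (treated over untreated, vertical axis) of each of the 15 probes against time in DB818 (6, 12 and 24 h, log scale), 1 panel for each receptor gene and 1 colour for each of its probes. Filled points were clear of the background of both channels and open points were not, and the grey band is the central 95% of all genes on that array. Kit lies at 0.31 to 0.35 on all arrays, Ifngr1 runs from -0.11 to -0.38 (0.45 to 0.18 with median centring), and the 3 Csf2rb probes lie apart.

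Mast cells also carry Kit, and 7 of their markers and those of basophils were on the array. Of these, Cpa3, Fcer1a, Ms4a2 and Tpsb2 were not well above background in either channel on any array. Cma1 was well above it in 1 untreated channel only. The 2 measured markers went opposite ways, Mcpt8 at 0.35 (adjusted p = 0.0099) and Hdc at -0.36 (adjusted p = 0.030), both by limma. Neither passed with Agilent's processed signals (adjusted p = 0.054 and 0.10) or without the 12 h array (adjusted p = 0.058 and 0.090). With median centring both passed in limma, at 0.31 (adjusted p = 0.0063) and -0.69 (adjusted p = 0.00082). Their summed normalised signal ranged from 320.1 to 346 in the untreated and from 337 to 375 in the treated channels.

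The 5 genes whose ratios lay nearest to those of Kit, by Euclidean distance over the 3 arrays among 9772 genes with an established symbol, were Nfatc3, Zfp46, Pif1, Eml4 and Rpia. Their distances were 0.03, 0.04, 0.04, 0.05 and 0.05, and 31 genes lay within 0.1 of Kit. Nfatc3, an NFAT transcription factor, stood at 0.32, 0.33 and 0.29, close to Kit at each time. The likeness rests on 3 arrays and is a description.

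Flt3, the receptor for FLT3 ligand, gave signals of 77.9, 76.2 and 83.7 in the untreated channel over backgrounds of 42, 41 and 41. In the treated channel the signals were 68.0, 67.8 and 68.3 over backgrounds of 55, 54 and 54. Its single probe was therefore not measured on any array, and no ratio is read from the open points of its panel in the plot of all probes. This holds for the probe and does not show that the transcript was absent.

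Csf1r, the CSF-1 receptor of monocytes and macrophages, had 3 probes, of which 1 was not well above background in either channel on any array. The brighter of the other two stood at -0.12, -0.05 and -0.07, and the dimmer at -0.18, -0.19 and -0.18. All 6 values were below 0. The gene fell by 0.13 ± 0.03 (SE, n = 3 arrays; adjusted p = 0.019 in limma), which is 1.09-fold. Fitted on its own, the dimmer probe passed the test (-0.18, adjusted p = 0.0077) and the brighter did not (-0.08, adjusted p = 0.11). The call also went without a filter on dim probes (-0.10, adjusted p = 0.051) and without the 12 h array (-0.13, adjusted p = 0.14). The mean was -0.31 with Agilent's processed signals and -0.28 with median centring. The level seen by the brighter probe was higher on the later arrays in both channels, from 8.26 to 8.77 untreated and from 8.14 to 8.70 treated on the normalised log2 scale. The dimmer probe moved by 0.03 in each channel between those arrays.

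Among the receptors of the beta chain family, both ligand-binding chains that were measured rose and neither beta chain passed the test. The difference between the chains was not tested. Csf2ra, the GM-CSF receptor alpha chain, gave signals of 4386, 4699 and 4787 untreated and of 13290, 13730 and 14310 treated before normalisation. Its ratios were 0.17, 0.20 and 0.14, above 0 on all 3 arrays and within 0.06 of each other. The mean was 0.17 ± 0.03 (SE, n = 3 arrays; adjusted p = 0.010 in limma), or 1.13-fold higher. It was 0.20 with Agilent's processed signals and 0.67 with median centring, and without the 12 h array it was 0.15 (adjusted p = 0.11).

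Il3ra, the IL-3 receptor alpha chain, had ratios of 0.22, 0.17 and 0.16, again above 0 on every array. Its signals were 249, 282 and 269 untreated and 569.7, 615 and 601 treated. The gene rose by 0.18 ± 0.03 (SE, n = 3 arrays; adjusted p = 0.0089 in limma), or 1.13-fold. With Agilent's processed signals the mean was 0.15 (adjusted p = 0.075), and without the 12 h array 0.19 (adjusted p = 0.072). It was 0.30 with median centring. Of all genes tested 8.88% had a higher mean than Il3ra and 10.1% a higher mean than Csf2ra. Il5ra, which binds IL-5 with the same beta chain, was not measured on any array.

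Csf2rb, the beta chain shared by GM-CSF, IL-3 and IL-5, had 3 probes above background on every array that did not move together. A dim probe stood at -0.25, -0.19 and -0.40, the bright probe at -0.12, -0.04 and -0.04, and the other dim probe at 0.10, 0.06 and -0.06. On its own the first passed the test (-0.28, adjusted p = 0.0061), whereas the bright probe (-0.07, adjusted p = 0.18) and the other dim probe (0.03, adjusted p = 0.59) did not. The gene mean was -0.11 ± 0.03 (SE, n = 3 arrays; adjusted p = 0.058 in limma), and with median centring it was -0.19 (adjusted p = 0.0038). The signals of the bright probe were 2158 to 2493 untreated and 5008 to 5858 treated, while those of the first dim probe were 127 to 133 and 146 to 169.

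Csf2rb2, the beta chain that serves IL-3, stood at -0.05, 0.01 and -0.0021, on both sides of 0. The mean was -0.01 ± 0.03 (SE, n = 3 arrays; adjusted p = 0.74 in limma), with a 95% interval of -0.09 to 0.06, and with median centring it was 0.24 (adjusted p = 0.00093). Csf2rb and Csf2rb2 are closely related neighbours on chromosome 15, 20.1 kb apart in GRCm38.p6. Whether the probes of one also bind the transcript of the other was not tested.

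Csf3r, the G-CSF receptor of granulocytes, stood at 0.09, 0.07 and 0.15, above 0 on all arrays. The mean was 0.10 ± 0.03 (SE, n = 3 arrays; adjusted p = 0.055 in limma), and it passed the test in none of the settings tried, in which it ranged from 0.07 to 0.13. Il6ra, the IL-6 binding chain, stood at 0.07, -0.01 and -0.16, with a mean of -0.04 ± 0.05 (SE, n = 3 arrays; adjusted p = 0.58 in limma). Of its 2 probes, 1 was measured on all arrays, at 0.07, 0.09 and -0.09. The other was well above background in the untreated channel alone at 6 h and stood at -0.12 and -0.24 at 12 and 24 h. The 6 h value of the gene thus rests on 1 probe and the later values on 2. With the first probe alone, a choice made after seeing the data, the mean was 0.03 (adjusted p = 0.69). The mean of the gene was -0.37 and past the threshold of limma with median centring (adjusted p = 0.0041), and -0.19 with Agilent's processed signals (adjusted p = 0.31).

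Ifngr1, the ligand-binding chain of the interferon-gamma receptor, stood at -0.11, -0.26 and -0.38, lower on each later array and 1.30-fold lower at 24 h. The mean was -0.25 ± 0.05 (SE, n = 3 arrays; adjusted p = 0.016 in limma), or 1.19-fold lower, and 139 of the 10957 genes (1.27%) had a lower mean. It was -0.22 with Agilent's processed signals (adjusted p = 0.093) and -0.24 without the 12 h array (adjusted p = 0.084). With median centring the ratios were 0.45, 0.20 and 0.18, and the mean was 0.28 (adjusted p = 0.0044), on the other side of 0.

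That setting leaves a trend with brightness on the arrays. With the genes in 10 groups of equal size by brightness, the median ratio at 24 h ran from -0.66 in the dimmest group to 0.42 in the brightest, which held Ifngr1 and Csf2ra. Against the median of that group Ifngr1 stood 0.03 higher at 6 h and 0.24 lower at 24 h. Csf2ra stood 0.27 and 0.24 higher than it at these times, and Kit stood 0.26 and 0.25 higher than the median of its own group, number 7 from the dimmest.

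The step of Ifngr1 between the 6 and the 24 h array was -0.28, and it was -0.27 to -0.28 in each of the 5 other settings, median centring included. Without the filter and with the brightest probe it could not change, since Ifngr1 has 1 probe, usable on every array. Among all genes the central 95% of this step ran from -0.25 to 0.28. The step lay in the untreated channel, where the normalised log2 signal was 13.36, 13.52 and 13.69 at 6, 12 and 24 h. The treated channel gave 13.26, 13.26 and 13.31. Over all genes the central 95% of the change in the untreated channel ran from -0.34 to 0.37, which holds the 0.33 of Ifngr1. No time was repeated, so this step was not tested.

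**Figure D3:**
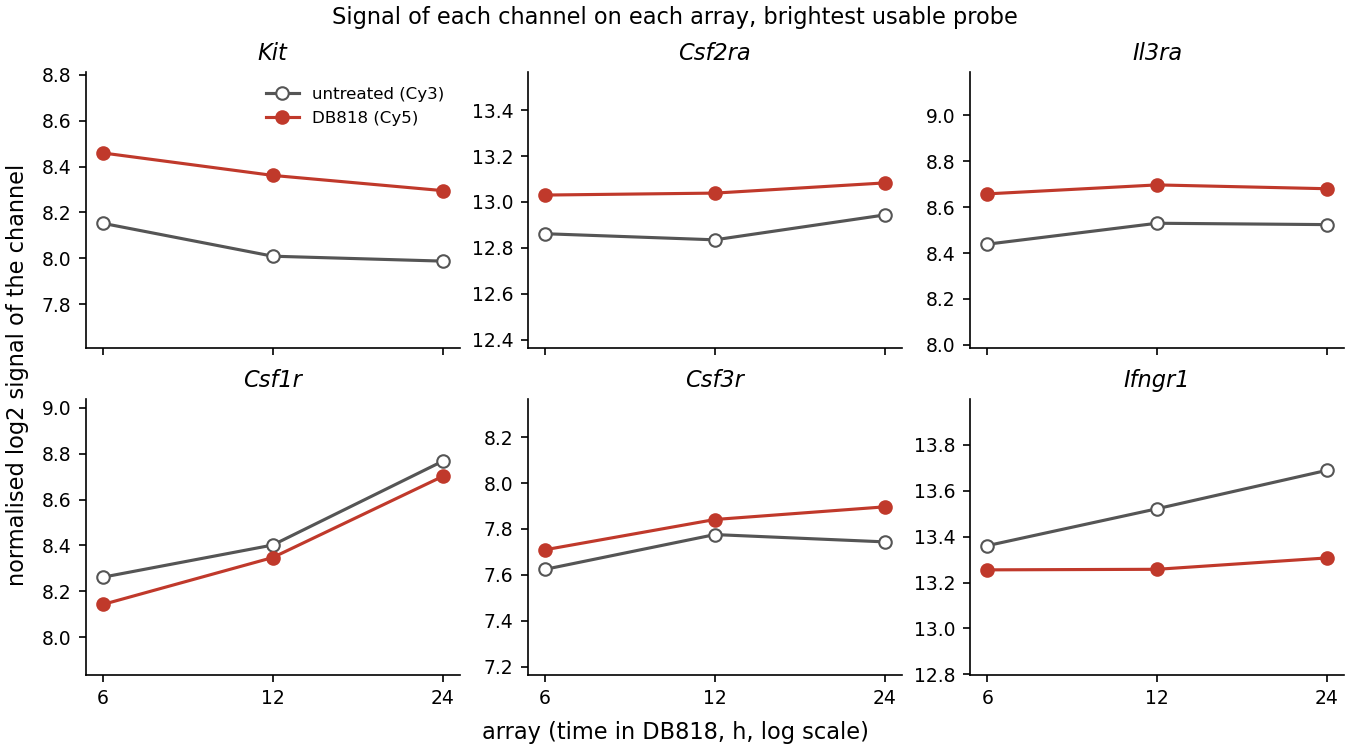
Normalised log2 signal (vertical axis) of the untreated (Cy3, open) and the treated (Cy5, filled) channel on the 6, 12 and 24 h arrays (log time scale), for the brightest usable probe of 6 receptor genes, each panel spanning the same range of log2 units. The gap between the lines is the log2 ratio: it is near 0.3 at all times for Kit, opens for Ifngr1 as the untreated signal goes from 13.36 to 13.69, and for Csf1r both lines climb together. With median centring in place of loess Ifngr1 lies above 0.

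The other genes of these pathways were taken as 5 lists. Of 10 ligands only Csf1 and Flt3l were measured, and Kitl, Csf2 and Il3 were not. Csf1, which encodes the ligand of Csf1r, stood at 0.18, 0.17 and 0.23, with a mean of 0.19 (adjusted p = 0.0075), but at -0.03 with median centring. It did not pass with Agilent's processed signals or without the 12 h array (adjusted p = 0.060 in both). Flt3l had a mean of -0.09 (adjusted p = 0.12).

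Of 34 other cytokine receptor chains 18 were measured, with 4 higher, 5 lower and 9 not past the test, and a median of -0.01. Il6st, the gp130 chain through which Il6ra signals, stood at -0.14, -0.23 and -0.46 (mean -0.28 ± 0.06 (SE, n = 3 arrays), adjusted p = 0.017 in limma), lowest at 24 h. Il17ra, an IL-17 receptor chain, stood at -0.12, -0.19 and -0.41 (mean -0.24, adjusted p = 0.023). Il11ra1, which binds IL-11 and also signals through gp130, had a mean of 0.27 (adjusted p = 0.0047) and Tgfbr1 one of 0.22 (adjusted p = 0.0059). These 4 kept their sign with median centring. With Agilent's processed signals, and again without the 12 h array, 2 of the 18 were higher and 1 was lower. Median centring gave 6 and 6. Il6st and Il17ra passed in neither of the first settings, Il6st with adjusted p = 0.059 (mean -0.64) and 0.062. Ifngr2, the partner of Ifngr1, stood at 0.06, 0.05 and 0.14 and did not pass (mean 0.08, adjusted p = 0.099).

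Of 16 kinases and STAT factors 15 were measured, with 5 higher, 2 lower and 8 not past the test, and a median of 0.02. Jak2, the kinase bound to the beta chain, stood at 0.02, 0.07 and 0.31 (mean 0.13, adjusted p = 0.12). The partner factors differed in their own tests: Stat5b had a mean of 0.27 (adjusted p = 0.0048), whereas Stat5a had one of -0.02 (adjusted p = 0.72; 0.11 and adjusted p = 0.045 with median centring). The difference between them was not tested. Lyn, a SRC family kinase, stood at 0.22, 0.27 and 0.26 (mean 0.25, adjusted p = 0.0047). Tyk2, a Janus kinase, stood at -0.32, -0.15 and -0.28 (mean -0.25, adjusted p = 0.0080). From Agilent's processed signals 2 of the 15 were higher and 2 lower, without the 12 h array 2 and 1, and with median centring 5 and 4.

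Of 25 adaptors and signal relays 23 were measured, with 4 higher, 0 lower and 19 not past the test, and a median of 0.03. Sos2, an exchange factor for RAS proteins, had a mean of 0.15, and Pik3r1 and Pik3cd, subunits of PI3 kinase, had means of 0.11 but stood at -0.05 and -0.08 with median centring. With Agilent's processed signals or without the 12 h array 0 of the 23 passed, and with median centring 9 were higher and 6 lower.

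Of 23 genes listed as brakes on receptor signalling 21 were measured, with 4 higher, 2 lower and 15 not past the test, and a median of 0.06. Socs3, a feedback inhibitor that binds gp130 and the G-CSF receptor, stood at 0.06, 0.43 and 0.47 (mean 0.32 ± 0.08 (SE, n = 3 arrays), adjusted p = 0.025 in limma). Ptpn11, the phosphatase SHP2, is in this list but does not act only as a brake. Its mean was 0.15 (adjusted p = 0.030 in limma). Socs1 and Pias1, both inhibitors of JAK-STAT signalling, had means of 0.14 (adjusted p = 0.032 and 0.015 in limma). All 4 kept their sign with median centring, in which 9 of the 21 were higher and 8 lower and Pias1 did not pass (adjusted p = 0.20). From Agilent's processed signals 0 were higher and 1 was lower, and without the 12 h array 0 passed in either direction. Against 20.0% and 7.84% of all genes, the 5 lists held 18 higher and 9 lower of 79 measured genes.

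**Figure D4:**
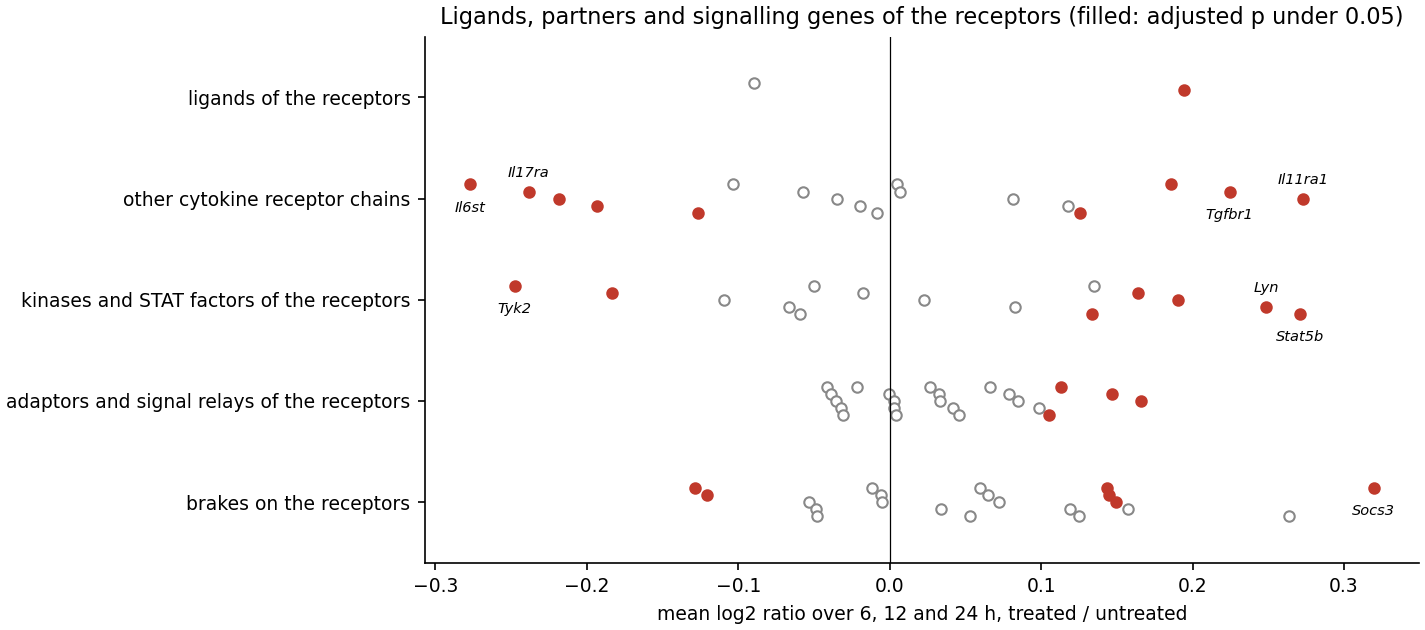
Mean log2 ratio (treated over untreated, horizontal axis) over the 3 arrays of each measured gene in 5 lists of ligands, other receptor chains, kinases and STAT factors, adaptors and brakes, filled where limma's adjusted p was under 0.05; height within a list has no meaning. Of the 79 genes, 69 lie within 0.2 of 0, with Socs3 (0.32) and Il11ra1 (0.27) at the right and Il6st (-0.28) at the left. Among the filled genes Csf1, Pik3r1, Pik3cd and Dok2, with median centring, lie on the other side of 0.

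The list of myeloid progenitor and neutrophil markers held 16 genes, and no probe was found by name for Cebpe, Ly6c2 and Ly6g. All 13 myeloid progenitor and neutrophil markers on the array were well above background in both channels of every array. Of the 12 measured, 1 was higher (Itgam, 0.38) and 6 were lower, among them Mpo (-0.67), Elane (-0.62) and Spi1 (-0.29), against 20.0% and 7.84% of all genes. The counts were 5 higher and 5 lower with median centring, 1 and 3 with Agilent's processed signals, and 1 and 4 without the 12 h array. With median centring Elane stood at -0.19, Spi1 at -0.75 and Mpo at -0.17 (adjusted p = 0.34), and Mpo did not pass with Agilent's processed signals either (adjusted p = 0.077). The other lower markers were Prtn3 (-0.28), Cebpa (-0.13) and Ly6c1 (-0.13). With median centring Cebpa stayed below 0 at -0.14. Prtn3 and Ly6c1 stood above 0 there, at 0.04 (adjusted p = 0.41) and 0.42 (adjusted p = 0.00015 in limma). The summed normalised signal of the markers was 69730 to 73240 in the untreated and 56670 to 62760 in the treated channels. Its part in the ratios of Csf1r, Csf3r and Kit was not tested. Of the T cell and erythroid markers 0 of 7 and 0 of 6 were measured on all arrays, of the B cell markers 2 of 7, of the megakaryocyte markers 1 of 6 and of the fibroblast markers 1 of 7, and none of these passed the test. Those measured were Blnk and Vpreb1 (B cell), Gp1bb (megakaryocyte) and Acta2 (fibroblast), well above background in both channels of every array. Cd79a, Ms4a1, Cd3d, Cd3e, Itga2b, Pdgfrb, Col3a1, Dcn and Lum were not well above background in either channel on any array. Cd79b, of the B cell list, was above background in the treated channel of all 3 arrays and in no untreated channel.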

How the data were processed

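The 3 arrays, 1 for each time (6, 12 and 24 h), were read from the deposited scanner files. The authors extracted them with Agilent Feature Extraction 9.1.3.1, per the submitters' processing notes. Per the file headers they hold each spot's mean intensity and median background intensity in Cy5 (treated) and Cy3 (untreated), with flags for background, saturation and outliers. The deposited value table gives a log10 ratio of Cy5 to Cy3 that differed by 0 from the scanner's own over 43790 spots an array. Agilent's flags and error estimates were used as the authors deposited them.

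Intensities were corrected with normexp (offset 50), which draws the ratios of dim genes toward 0, and each array was then normalised on its own by loess with limma (version 3.58.1; R 4.3.3; the data-table package, 1.17.8). Control spots and 37, 36 and 52 outlier spots were dropped. Repeated spots were averaged into probes, and unsaturated probes above the background of both channels into genes. Names followed RefSeq by accession (22864 probes), symbol (6734) or synonym (3487), and 8089 kept the file's name. The mean ratio over the times was tested against 0 with lmFit and eBayes (2 residual degrees of freedom, prior 4.82) on 10957 genes, adjusted after Benjamini and Hochberg at 0.05. The script was tested on simulated data. Single times and changes between arrays were described by size, without a test. Nothing says whether the cultures were separate, so p-values measure only the spread between these arrays. Channels were compared across arrays after Aquantile scaling. Other settings covered background correction, normalisation, the filter, the choice of probe, the variance trend and each array left out.

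Named genes were the 10 receptors, up to 4 genes past the threshold with the largest mean in each list, Jak2, Stat5a, Stat5b, Il6st and Ifngr2, the 5 nearest neighbours of Kit, and markers by counts and examples. Some genes under this rule are not reported here. Flt3l, Dok2 and the other marker genes were added after their values were seen. The receptors and lists were chosen with earlier results of these data known. Figures used matplotlib 3.10.9 with pandas 2.3.3 and numpy 2.4.6 under Python 3.11.15.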

Additional observations from a re-analysis of the deposited data

Results flagged for a closer look

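Il6ra stood at 0.07 at 6 h and at -0.16 at 24 h, a change of -0.23, so the ratios at these times lay on opposite sides of 0, but with median centring both lay below it (-0.17 and -0.59). This difference was not tested, since each time had 1 array. At 6 h the gene rests on 1 probe and at 24 h on 2. The change was -0.15 with the probe measured on all arrays alone, -0.22 without the filter on dim probes, -0.34 with plain background subtraction, -0.42 with median centring and -0.58 with Agilent's processed signals.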

How the results depend on the processing

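Kit kept its direction and its side of the threshold in all 10 other settings. The filter, the choice of probe, each probe fitted alone and the variance trend could not change its mean, which rests on 1 probe. With Agilent's processed signals 590 genes were called higher, in place of 2189, and 1 receptor lower, in place of 2. With median centring 4156 genes were higher and 4475 lower (in place of 859), 5 receptors were higher (in place of 3), and the means of Csf2rb2 and Ifngr1 reversed to 0.24 and 0.28, as did Ifngr1 at 24 h (0.18). The brightness trend that this setting leaves is given with Ifngr1. Without the filter on dim probes and with the brightest probe, 1 receptor was lower, and with the brightest probe, each probe fitted alone or the all-array probe alone (added after seeing the data) the mean of Il6ra reversed to 0.025. With each array left out in turn, 416 to 2262 genes were higher and 143 to 939 lower, 1 to 3 receptors were higher and 0 to 2 lower, always fewest without the 12 h array. The means ranged from 0.31 to 0.33 for Kit, -0.0285 to 0.0053 for Csf2rb2 and -0.0888 to 0.0277 for Il6ra. The causes of these differences were not tested. Over these settings, the all-array probe alone left out, the means of the 8 other measured receptors kept their direction and side 62 times. They no longer passed 8 times, newly passed 2 times and reversed 6 times. For a receptor with 1 probe, the filter and the choice of probe could not change the mean. Treated and untreated RNA were compared within each array, and each time had 1 array. Probes near background, those of Flt3 and 1 of Csf1r, gave no measured ratio.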
